A study of Mus musculus with 2 samples.

Results

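The 9 contractile smooth-muscle genes Acta2, Tagln, Myl9, Myh11, Cnn1, Des, Tpm2, Lmod1 and Mylk were followed by name through 2 single-cell libraries of mouse glioma. They are 9 of the 27998 mouse genes counted in each library, and all 9 symbols were found once. Each library held the cells of 1 dissected and enzymatically digested brain tumour of the NPCTKO model in C57BL/6 mice of 3 months. In this model a transposon carrying Cas9, luciferase, an EGFP label and guides to tumour suppressors, Trp53 and Nf1 among them, is electroporated in utero into neocortical progenitors, so that EGFP marks cells descended from the electroporated ones. Both libraries carry that genotype and there is no untreated library. The hosts carried the Ai14 tdTomato reporter with either Tek-Cre, a driver active in endothelial cells and tumour-associated macrophages, or Tbx18CreERT2/+, a driver active in mural cells. Neither library is matched to its host by a label, so host, tumour and library cannot be told apart, and a difference between tumours 1 and 2 is a difference between 2 libraries.

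Smooth-muscle contraction runs on an actin thin filament and a myosin motor. Calcium-bound calmodulin activates myosin light chain kinase, which phosphorylates the regulatory light chain and so switches the motor on. In the brain this apparatus is best known from the mural cells of vessels: arterial smooth muscle holds most of it and capillary pericytes hold little Acta2. Acta2 alone is not specific, since activated fibroblasts and several kinds of tumour cell also make alpha smooth muscle actin. Many of the genes are driven by serum response factor bound at a short element, the CArG box, together with cofactors of the myocardin family.

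CArG boxes are shown for the members in whose promoter letters they were found, since the element is the textbook link between these genes. RefSeq promoter windows of build GRCm38.p6, running from 250 bases before to 50 after the start site, were at hand for 7 of the 9 members. Tagln and Myh11 are named only. A box opens with a pair of C, ends with a pair of G and holds A or T between, a form that reads as a box on both strands. It was searched exactly and with up to 1 core letter changed. Myl9 held 1 exact box, Myl9 and Acta2 held 3 changed ones between them, and no match was found in the windows of Cnn1, Des, Tpm2, Lmod1 and Mylk. Of 32851 windows of the same length over all genes, 1.63% held an exact box and 9.98% held a box with at most 1 letter changed. The boxes are in capitals within 30 bases read 5′ to 3′ on the gene's own strand, and a match describes letters, not binding.
Acta2, chr19:34255438-34255467, minus strand, 84 bases before the start, 1 letter changed: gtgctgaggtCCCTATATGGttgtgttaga
Acta2, chr19:34255388-34255417, minus strand, 34 bases before the start, 1 letter changed: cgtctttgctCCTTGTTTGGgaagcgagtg
Myl9, chr2:156775293-156775322, plus strand, 161 bases before the start, exact: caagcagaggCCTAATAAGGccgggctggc
Myl9, chr2:156775355-156775384, plus strand, 99 bases before the start, 1 letter changed: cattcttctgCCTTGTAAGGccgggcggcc

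Reads were counted at the 3′ end of transcripts as unique molecular identifiers (UMIs), each standing for 1 captured molecule. After quality filters and removal of likely doublets 11380 cells of tumour 1 and 13200 of tumour 2 remained, with medians of 18082 and 13074 UMIs, and 36 of the retained cell barcodes occurred in both libraries. Cells were placed in classes by sums of marker genes that include none of the 9 members. The mural gate summed Kcnj8, Pdgfrb, Abcc9 and Vtn and the class held 18 and 31 cells of tumours 1 and 2. Endothelial cells numbered 49 and 33, astrocyte-like cells 625 and 55, myeloid cells 958 and 2075, and T and NK cells 274 and 648. EGFP-high glioma cells, those past no other gate whose EGFP exceeded the 95th percentile of the library's own T and NK cells, numbered 7253 and 6900. Of the cells past no gate, on either side of that cut, 934 and 1338 lay within 20% of it.

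The marker check separated mural from glioma cells, but it did not separate mural from endothelial cells in tumour 1. Rgs5, a pericyte gene outside the gate, stood at 23.7 and 31.5 UMIs per 10,000 in mural cells of tumours 1 and 2, against 0.011 and 0.015 in EGFP-high glioma cells. Sox2, a glioma and progenitor factor, stood at 0.252 and 0.424 in mural cells, against 2.23 and 2.76 in glioma cells. In tumour 1, 13 of the 18 mural barcodes also passed the endothelial gate, and in tumour 2 this was 4 of 31. These barcodes had median depths of 37473 and 48457 UMIs, against 13532 and 17111 in endothelial cells, and held the endothelial gene Cldn5 at 53.3 and 45.9 per 10,000, against 60.6 and 31.3 there. In the whole mural class of tumour 1 the endothelial gate genes, at 75.0 per 10,000, exceeded the mural gate genes, at 36.5, while in tumour 2 they stood at 21.1 and 56.9. These barcodes were kept, because only 5 cells of tumour 1 passed the mural gate alone, so a mural cell here is a barcode past the mural gate. Without them the 9 members stood at 12.4 and 49.8 per 10,000 in mural cells, in place of 5.70 and 35.7. Among the 5 cells the fibroblast gene Dcn stood at 37.2 per 10,000, but 131 of its 132 UMIs lay in 1 cell, which had 36 Col1a1 UMIs, no Rgs5 UMI and gate genes at 9.55 per 10,000.

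Within the mural class every member except Cnn1 had at least 1 UMI in both tumours, at levels that differed widely between the 2 libraries. The 9 genes together made up 5.70 UMIs per 10,000 in the mural class of tumour 1 and 35.7 in that of tumour 2 (95% exact Poisson intervals 5.09 to 6.36 and 34.3 to 37.2). In EGFP-high glioma cells they made up 0.322 and 0.498. Levels per 10,000 UMIs are compared here between classes and not between genes. All intervals cover counting error only, since cells of 1 tumour are not replicates.

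**Figure D1:**
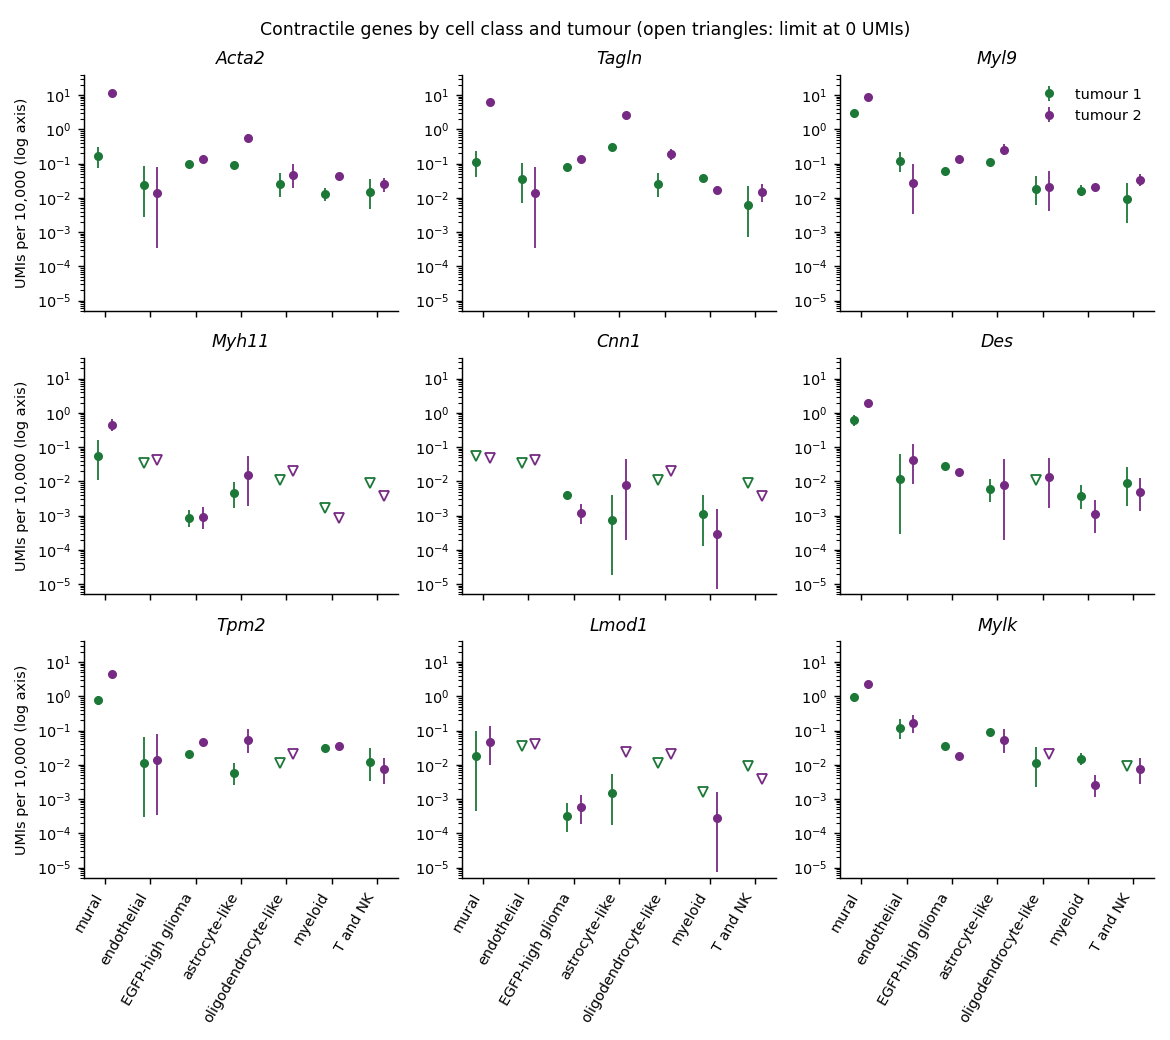
Level of each of the 9 genes in UMIs per 10,000 (logarithmic axis) by cell class, green for tumour 1 and purple for tumour 2, with 95% exact Poisson intervals; open triangles mark the limit set by 3 counts where a class had no UMI. Mural cells hold the highest level of Myl9, Des, Tpm2 and Mylk in both tumours, and of Acta2 only in tumour 2 by a wide margin.

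Of the thin filament genes, Acta2 and Tagln were high in the mural class of tumour 2 and near the glioma level in that of tumour 1. Acta2 encodes alpha smooth muscle actin, the main actin of vascular smooth muscle. Its mural count was 9 UMIs in tumour 1 and 730 UMIs in tumour 2, which is 0.162 (0.0742 to 0.308) and 11.5 (10.7 to 12.3) per 10,000, against 0.0945 (0.0896 to 0.0995) and 0.140 (0.133 to 0.149) in glioma cells. The tumour 1 glioma level therefore lay inside the interval of the mural level, while in tumour 2 the mural level was 81.7-fold higher. Tagln, an actin-bundling protein of the calponin family that appears early in smooth-muscle differentiation, followed Acta2 closely. Its level was 0.108 (6 UMIs) and 6.34 (403 UMIs) in mural cells, against 0.0774 and 0.136 in glioma cells. Exons of Tagln overlap those of Pcsk7 on the opposite strand.

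Tpm2, the beta-tropomyosin that lies along the filament, did not share the gap in tumour 1. It reached 0.757 (42 UMIs) and 4.39 (279 UMIs) in mural cells of tumours 1 and 2, against 0.0204 and 0.0461 in glioma cells, 37.2-fold and 95.1-fold higher. Cnn1, calponin, which binds actin and restrains the motor, had no UMI in the mural cells of either tumour. At their depth that allows up to 0.0541 and 0.0472 per 10,000, limits above the 0.00397 (60 UMIs) and 0.00116 (10 UMIs) of glioma cells, so neither presence nor a difference was detectable. Lmod1, leiomodin, which nucleates actin filaments in smooth muscle, had 1 and 3 UMIs in mural cells and 5 and 5 in glioma cells and was too scarce for a comparison.

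The genes of the motor and its switch were found in mural cells of both tumours. Myl9, the regulatory light chain, had 3.03 (168 UMIs) and 8.85 (563 UMIs) per 10,000 in mural cells, against 0.0625 and 0.136 in glioma cells, and at least 1 UMI in 16 of 18 and 28 of 31 mural cells. Mylk, the light chain kinase, stood at 0.956 (53 UMIs) and 2.23 (142 UMIs), against 0.0347 and 0.0178, and was seen in 16 of 18 and 24 of 31 mural cells. Myh11, the smooth-muscle myosin heavy chain and the most restricted of the motor genes, had a mural count of 3 UMIs in tumour 1 and 29 in tumour 2. In tumour 2 this was 0.456 per 10,000, against 0.000929 (8 UMIs) in glioma cells, 491-fold higher. Des, the desmin filament that anchors the apparatus, stood at 0.613 (34 UMIs) and 1.95 (124 UMIs) in mural cells, against 0.0279 and 0.0194 in glioma cells. Des shares exon positions with the antisense gene Gm15179, and for none of the 9 genes did the last 500 bases share a 50-base word with another gene.

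Tests were run with edgeR on UMI counts summed per tumour and class, 14 sums of 7 classes with the tumour as a block, and adjusted over 13486 genes. Of the 9 members 7 passed the filter on low counts. Cnn1 and Lmod1 did not, and Myh11 passed only through the mural sums, which are the ones where it is high. Against EGFP-high glioma cells 6 of the 6 others were higher in mural cells at an adjusted p under 0.05, beside 15.3% of all genes tested called higher; Myh11 also passed and is not counted. The median log2 fold change was 6.01 over the 7, or 5.92 over the 6 without Myh11, beside a median of -0.13 over all genes. Myl9 was higher by 6.01 ± 0.47 (SE, edgeR adjusted p = 6.07e-06), Tpm2 by 6.21 ± 0.61 and Mylk by 6.20 ± 0.75. Acta2 was higher by 4.75 ± 0.96 (edgeR adjusted p = 0.00335) and Tagln by 4.30 ± 1.08 (edgeR adjusted p = 0.0120), with the widest errors but for Myh11. For both genes the size rests on tumour 2: the log2 ratio of the levels was 6.35 for Acta2 and 5.54 for Tagln there, against 0.78 and 0.48 in tumour 1. For Myl9 the ratios were 6.03 in tumour 2 and 5.60 in tumour 1.

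Endothelial cells, the neighbours of mural cells in the vessel wall, held hardly any of the programme. The 9 genes made up 5.70 and 35.7 per 10,000 in mural cells, against 0.315 (27 UMIs) and 0.279 (20 UMIs) in endothelial cells of tumours 1 and 2. In the edgeR test 4 members, Myl9, Tpm2, Des and Acta2, were higher in mural cells, beside 0.682% of all genes tested. Their log2 fold changes were 6.10 ± 0.57, 7.42 ± 0.93, 5.61 ± 0.88 and 7.61 ± 1.43, with edgeR adjusted p of 0.00125, 0.00413, 0.0138 and 0.0334. Acta2 rests on 2 and 1 endothelial UMIs, and its adjusted p was 0.154 without the block and 0.0890 without doublet removal. Tpm2 rests on 1 and 1 and its adjusted p was 0.0571 without the block. Mylk, which endothelial cells also use to control their junctions, had 53 and 142 UMIs in mural cells, against 10 and 12 in endothelial cells (log2 fold change 3.59 ± 0.77, edgeR adjusted p = 0.0637). Tagln did not pass either (edgeR adjusted p = 0.122). The test was also run with mural cells past 1 gate only, that is without the barcodes that also passed the endothelial gate. The mural sum of tumour 1 then came from 5 cells with 35458 UMIs, under the minimum of 10 cells. The share of all genes called was not taken in that setting, so its calls are not counted here. Myh11 had no endothelial UMI, and its tumour 2 mural level was at least 10.9-fold higher than the limit of 3 counts in that library's endothelial cells (edgeR adjusted p = 0.189).

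**Figure D2:**
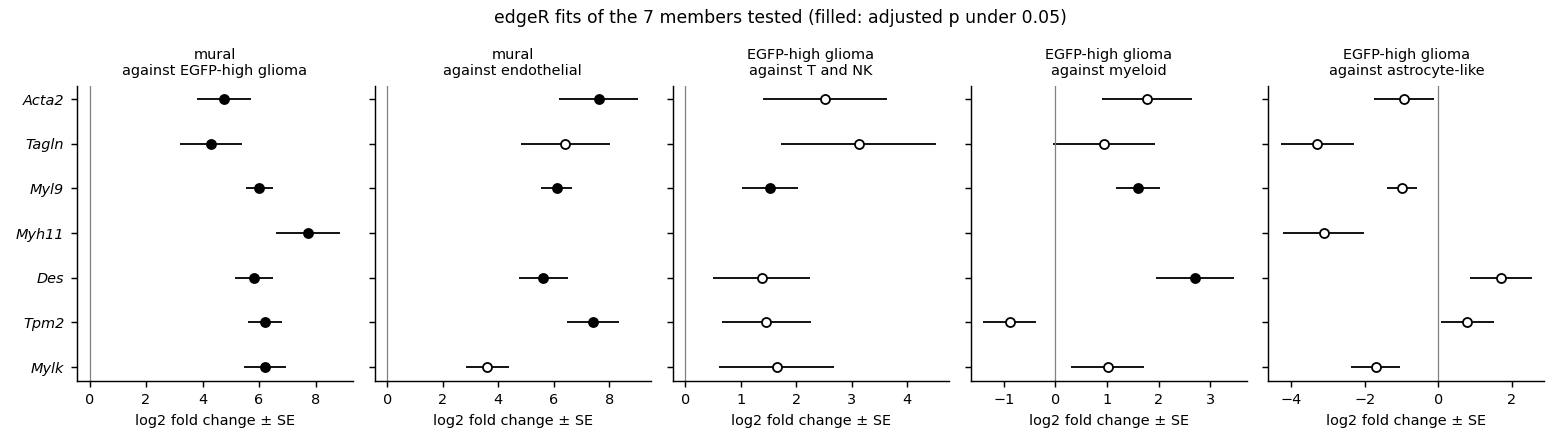
Log2 fold change with its standard error from edgeR for the 7 members tested, 1 panel for each of the 5 comparisons; filled points have an adjusted p under 0.05. Every member drawn is filled and above 4 in mural against EGFP-high glioma cells, while no more than 2 are filled in any comparison of glioma cells with immune or astrocyte-like cells; Myh11 is not drawn where the other class had no UMI.

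Mural cells of tumour 2 were themselves far from alike. Only 4 of the 31 carried 100 or more Acta2 UMIs, with 161, 151, 147 and 132, and they held 81.0% of the Acta2, 86.6% of the Tagln and 75.9% of the Myh11 UMIs of the class. Those 4 cells had 133, 54, 55 and 107 Tagln UMIs and 10, 3, 4 and 5 Myh11 UMIs, each carried 7 or 8 of the 9 members, and none passed a second gate or was EGFP-high. They held less of the rest of the apparatus: 43.2% of the Myl9, 48.0% of the Tpm2, 30.3% of the Mylk and 27.4% of the Des UMIs. A further 4 cells had 10 to 99 Acta2 UMIs and 23 had fewer than 10.

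The same 4 cells differed in pericyte genes. Kcnj8, a potassium channel subunit of pericytes that is part of the gate, stood at 2.10 per 10,000 in the 4 cells and 5.20 in the 23 with fewer than 10 Acta2 UMIs. The 2.10 rests on 13 UMIs in 2 of the 4 cells, and the 23 include all barcodes of tumour 2 also past the endothelial gate. Vtn, also in the gate, stood at 28.1 and 50.1. Rgs5 went the other way, at 72.1 and 25.4. The fibroblast gene Dcn had no UMI in the 4 cells, nor in the cells with 10 to 99 Acta2 UMIs. Its 166 UMIs lay in 5 of the 23, with 130 of them in 1 cell. These cells were set apart by their Acta2 count, so the values describe them and no test was made. Without them Acta2 in mural cells of tumour 2 was 2.42 per 10,000 and the 9 members 14.9, still above the 0.140 and 0.498 of glioma cells.

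Mural cells of tumour 1 held no such cell. None of the 18 had more than 3 Acta2 UMIs and 5 had any, while Des and Tpm2 were each seen in 13 of 18. Counting only the 5 cells past the mural gate alone, the 9 members stood at 12.4 and Acta2 at 0.846 per 10,000, where Acta2 rests on 3 UMIs of 1 cell, the one with 131 Dcn UMIs.

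**Figure D3:**
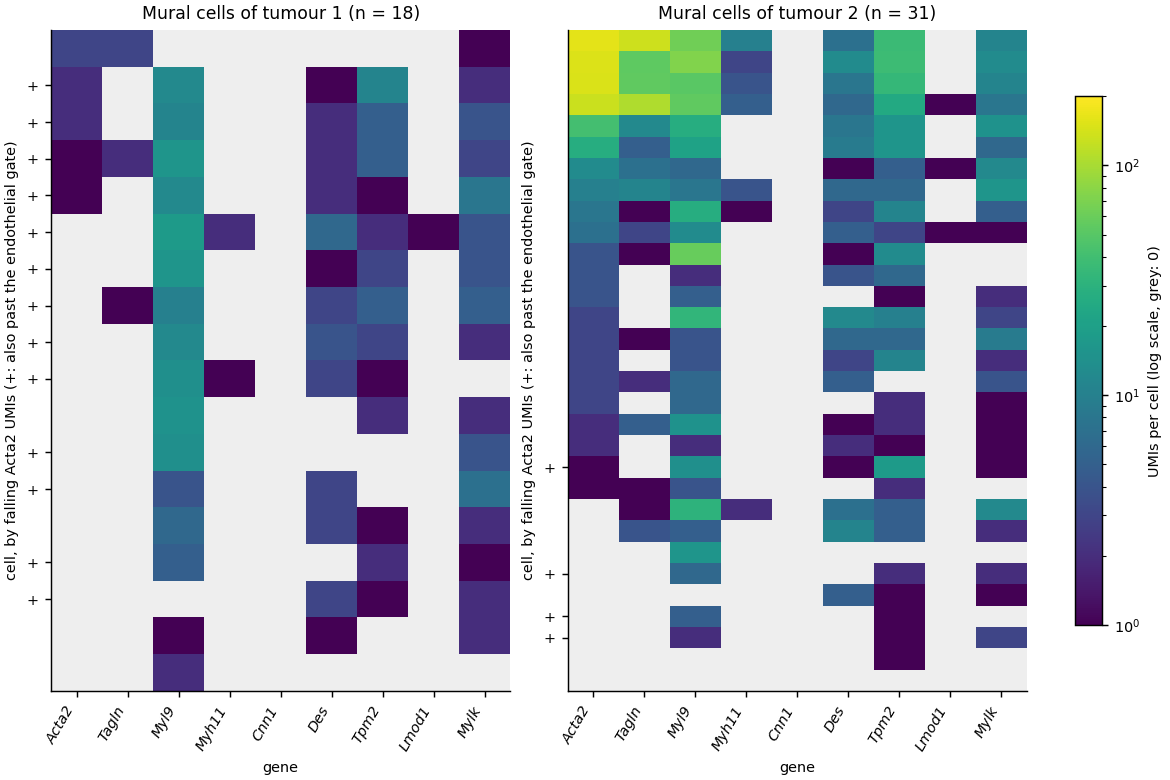
UMIs of each member (columns) in each mural cell (rows, by falling Acta2 count) of tumour 1 (18 cells) and tumour 2 (31 cells), colour on a logarithmic scale and grey for 0; a plus marks barcodes also past the endothelial gate. The 4 top rows of tumour 2 hold 132 to 161 Acta2 UMIs together with Tagln and Myh11, whereas no row of tumour 1 exceeds 3 Acta2 UMIs although Myl9 and Mylk fill most of its rows.

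Other genes of the programme and of neighbouring pathways were read from lists beside the members. Of the 17 tested genes of a wider smooth-muscle list of 20, 10 were higher in mural than in EGFP-high glioma cells and 1 lower, beside 15.3% and 12.1% of all genes tested, with a median log2 fold change of 2.43. Kcnmb1, a subunit of the calcium-activated potassium channel that relaxes smooth muscle, was higher by 9.34 ± 1.82, Casq2, a calcium store protein, by 8.91 ± 1.06 and Ppp1r14a, an inhibitor of myosin phosphatase, by 7.60 ± 0.68. Susd5 fell by 4.31. Of 9 regulators tested 6 were higher and none lower, among them the transcription factors Foxs1 (8.55 ± 0.84), Heyl (5.29 ± 0.75), Tbx18 (4.65 ± 1.08) and Mef2c (3.44 ± 0.39). Myocd, the coactivator that marks differentiated smooth muscle, had 0 and 1 UMIs in mural cells, and Srf had 6 and 18.

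The non-muscle counterparts of the members moved much less. Of 15 tested, 9 were higher in mural than in glioma cells and 1 lower, with a median of 1.45: Myh9, the non-muscle myosin heavy chain, by 4.19 ± 0.34, Cnn2 by 3.54 ± 0.50, Myl12a by 2.84 ± 0.39 and Tpm4 by 2.79 ± 0.29. Beta-actin, Actb, stood at 71.9 and 58.1 per 10,000 in mural cells, against 41.3 and 52.3 in glioma cells, and did not pass (edgeR adjusted p = 0.0868).

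Pericyte genes were higher in mural than in glioma cells in 11 of 12 (Higd1b by 12.1 ± 0.81 and Rgs5 by 11.2 ± 0.79), and fibroblast genes in 6 of 9, with Dcn higher by 8.81 ± 1.13 and Pdgfra lower by 4.34. The Dcn value rests on few cells: 1 cell held 131 of the 141 Dcn UMIs of tumour 1 and 1 held 130 of the 166 of tumour 2, and neither had an Rgs5 UMI. Of the TGF-beta and mechanical responders 8 of 9 were higher, among them the ligand gene Tgfb1 (4.77 ± 0.31). Hypoxia genes were higher in 3 and lower in 2 of 8. One of the 3, the glucose transporter gene Slc2a1, stood at 9.71 and 10.0 per 10,000 in the mural barcodes that also passed the endothelial gate and at 0 and 0.404 in those past the mural gate alone, against 0.0824 and 0.427 in glioma cells and 9.98 and 5.48 in endothelial cells. Against endothelial cells 2 of 17 genes of the wider smooth-muscle list, 2 of 9 regulators and 9 of 12 pericyte genes were higher in mural cells. Of all genes tested 0.682% were called higher there. Higher there were 0 of 9 TGF-beta and mechanical responders, 0 of 15 non-muscle counterparts and 0 of 8 hypoxia genes. These 3 counts lie near the share over all genes and are not a result about those lists. Of 9 fibroblast genes 1 was higher and 1 lower than in endothelial cells. Against glioma cells, mitotic genes, cartilage matrix genes and glioma genes were called higher in 0 of 6, 1 of 5 and 1 of 6 and lower in 2, 4 and 3. Of all genes tested 15.3% were called higher and 12.1% lower in mural than in glioma cells.

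The 5 genes outside the members that followed the summed programme most closely over the 14 sums were Syt12 (Pearson r = 0.942), Nbl1 (0.940), Il34 (0.940), Pygm (0.935) and Foxs1 (0.932), out of 13479 compared on log2 CPM, UMIs scaled to a common total, with a pseudocount of 1. All 14 points come from 2 libraries and the mural sums stand far above the rest, so the values are given as a description. Pygm, muscle glycogen phosphorylase, had 7.21 and 23.6 CPM in mural cells, against 0.351 and 0.302 in glioma cells.

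In EGFP-high glioma cells Acta2 was rare but spread over many cells. It had 1428 and 1209 UMIs in tumours 1 and 2, found in 794 of 7253 and 553 of 6900 cells (10.9% and 8.01%) at full depth, and the 5 richest cells held 6.65% and 18.0% of them. Tagln was more concentrated, its 5 richest cells holding 42.1% of 1170 UMIs in tumour 1, and Cnn1 most of all, with 81.7% of its 60 UMIs there in 5 cells. In tumour 2 the 5 richest cells held 30.1% of 1174 Tagln UMIs, and Cnn1 had 10 UMIs in 9 cells.

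Immune cells served as a reference level, and how far their UMIs come from free RNA was not tested. T and NK cells held Acta2 at 0.0150 (5 UMIs) and 0.0250 (20 UMIs) per 10,000 and myeloid cells at 0.0126 and 0.0432, against 0.0945 and 0.140 in glioma cells. Glioma cells were 6.28-fold and 5.62-fold above T and NK cells, a log2 fold change of 2.52 ± 1.12 that did not pass over all genes (edgeR adjusted p = 0.0886; unadjusted p = 0.0438). Myl9 did, at 1.53 ± 0.50 (edgeR adjusted p = 0.0286), as the only member, beside 23.6% of all genes tested called higher in glioma cells. The Acta2 call changed with the filter: with no filter on low counts its adjusted p was 0.00346, and with mural cells past 1 gate only it was 0.0168. Myl9 lost its call without the tumour block (0.206) and without doublet removal (0.0591).

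Against myeloid cells, 2 members were higher in glioma cells, beside 24.5% of all genes tested. They were Myl9 (log2 fold change 1.60 ± 0.43, edgeR adjusted p = 0.00916) and Des (2.71 ± 0.75, edgeR adjusted p = 0.0110), and Myl9 lost its call without the block (0.119). Acta2 stood at 1.78 ± 0.87 (edgeR adjusted p = 0.113), and at 0.00595 with no filter on low counts and 0.0221 with mural cells past 1 gate only. Tpm2 ran the other way without passing, at -0.88 ± 0.52, but only in tumour 1. Its glioma level was 0.666-fold the myeloid level there and 1.29-fold in tumour 2. The median over the 6 tested members without Myh11, which had no UMI in either immune class, was 1.59 against T and NK cells and 1.31 against myeloid cells, beside 0.08 and 0.10 over all genes.

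Between glioma and astrocyte-like cells no member passed the threshold. The astrocyte-like class is not free of the EGFP label: 391 of its 625 cells in tumour 1 and 39 of 55 in tumour 2 were EGFP-high. Its median EGFP was 28.8 and 95.5 per 10,000, against 75.1 and 62.0 in glioma cells, and its Sox2 was 3.88 and 2.31. The 9 members made up 0.322 and 0.498 per 10,000 in glioma cells, against 0.620 and 3.66 in astrocyte-like cells, where Tagln supplied 418 of 841 and 345 of 468 member UMIs. Des and Tpm2 ran the other way, with log2 fold changes of 1.70 ± 0.84 and 0.79 ± 0.72 (edgeR adjusted p = 0.229 and 0.557). The ratio of Tpm2 levels was 3.45 in tumour 1 and 0.841 in tumour 2, where Des had 1 astrocyte-like UMI. edgeR called 0 of 7 members in either direction, beside 3.89% and 7.10% of all genes called higher and lower in glioma cells. Unadjusted p was under 0.05 for 4 of them and DESeq2 also called 0. Tagln came nearest, at a log2 fold change of -3.29 ± 0.99 (edgeR adjusted p = 0.0544), with 1174 UMIs in 6900 glioma cells of tumour 2, against 345 in 55 astrocyte-like cells, of which 1 cell held 176. Acta2 was level in tumour 1, 0.0945 in glioma and 0.0937 in astrocyte-like cells, and stood at 0.140 and 0.564 in tumour 2 (log2 fold change -0.94 ± 0.82, edgeR adjusted p = 0.536).

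Shares of cells depend on depth, so every cell was thinned to 2000 UMIs. At this depth Acta2 was found in 109 of 6711 glioma cells of tumour 1 (1.62%, 95% exact binomial interval 1.34 to 1.96) and 98 of 5474 of tumour 2 (1.79%, 1.46 to 2.18). It was found in 0 of 270 T and NK cells of tumour 1, which allows a share of up to 1.11%, and in 6 of 648 of tumour 2 (0.926%, 0.341 to 2.00). Myeloid cells gave 0.318% (0.0656 to 0.926) and 1.34% (0.887 to 1.95). In tumour 1 the glioma interval lay above that of myeloid cells but met that of T and NK cells, whose exact upper limit was 1.36%. In tumour 2 it overlapped both, so at 2000 UMIs a difference was not detectable there. Before thinning the shares in T and NK cells were 1.46% and 2.93% at median depths of 9876 and 7982 UMIs, against 10.9% and 8.01% in glioma cells at 18297 and 8197. Of mural cells 2 of 17 and 16 of 31 held an Acta2 UMI after thinning.

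Whether Acta2 in a glioma cell is joined by the rest of the programme was read from co-detection at 2000 UMIs, within cells past no gate. EGFP-high barcodes past the mural gate, 2 in tumour 1 and 3 in tumour 2, count as mural and are outside these glioma shares. At full depth they held 5 and 1 members in tumour 1 and 4, 6 and 0 in tumour 2. The EGFP-high astrocyte-like cells, 391 and 39, are also outside these shares. In tumour 1, 11 of 109 Acta2-positive glioma cells (10.1%, 5.15 to 17.3) held any of the other 8 members, against 203 of 6602 Acta2-negative ones (3.07%, 2.67 to 3.52). In tumour 2 it was 11 of 98 (11.2%, 5.74 to 19.2), against 300 of 5376 (5.58%, 4.98 to 6.23). The other members were thus seen more often beside Acta2, with intervals that did not overlap in tumour 1 and did in tumour 2. The remaining Acta2-positive glioma cells, most of them in both tumours, showed Acta2 by itself at this depth. By comparison 15 of 16 Acta2-positive mural cells of tumour 2 (93.8%, 69.8 to 99.8) held another member, and all 15 held 2 or more, against 9 of 15 Acta2-negative mural cells with any. In tumour 1 only 2 mural cells were Acta2-positive after thinning, too few for a share.

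Tagln was seen more often beside Acta2 in glioma cells of both tumours, and Myl9 in tumour 1. Tagln was in 4.59% and 7.14% of Acta2-positive cells of tumours 1 and 2, against 0.591% and 1.79% of Acta2-negative ones. Myl9 was in 6.42% and 3.06%, against 0.969% and 2.44%. Tpm2 was in 1.83% and 1.02%, against 0.364% and 0.949%. Myh11, Cnn1 and Lmod1 were in 0 of the 109 and 0 of the 98, while Myh11 was in 4 of the 16 Acta2-positive mural cells of tumour 2. At this depth Myh11 was in 0 of 6711 and 1 of 5474 glioma cells, and in 0 of 17 mural cells of tumour 1. Its zeros therefore cannot tell Acta2-positive from Acta2-negative glioma cells. Des and Mylk were in 0 of 109 in tumour 1 and in 2 and 1 of 98 in tumour 2, against 8 and 7 of the 16 mural cells. Cells with 2 or more of the others made up 2.75% and 2.04% of Acta2-positive glioma cells, against 0.136% and 0.298% of Acta2-negative ones. Cells of 1 tumour share their source and their free RNA, so these shares carry no p-value.

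**Figure D4:**
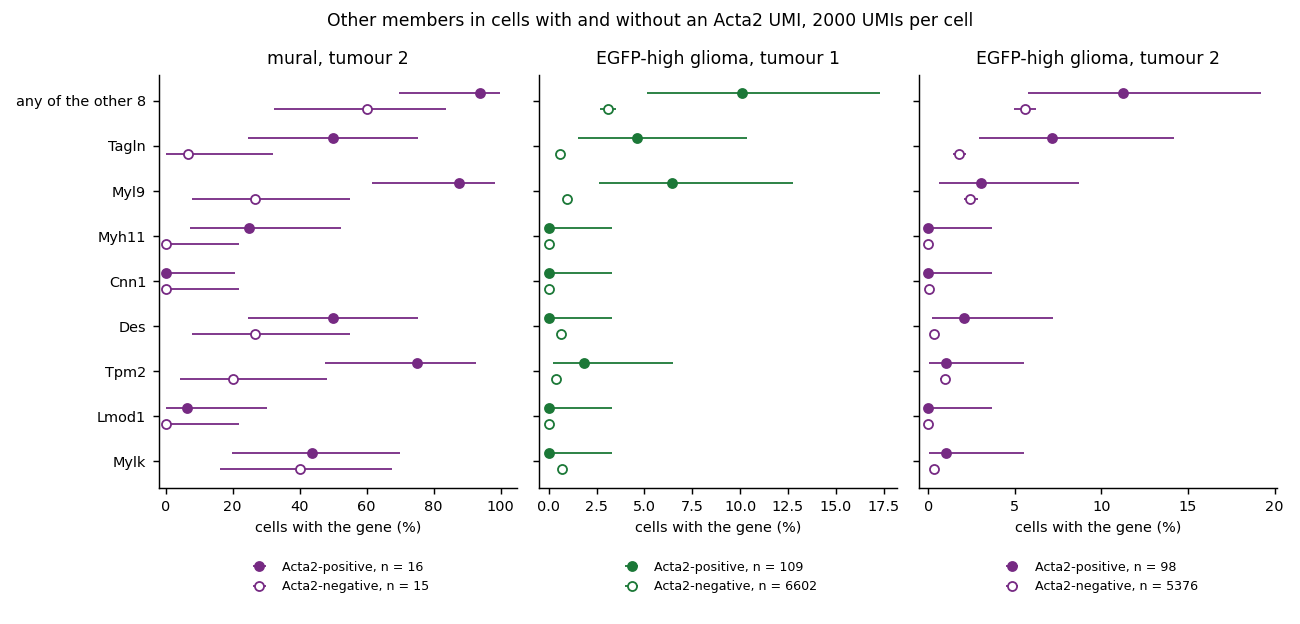
Share of cells (percent, axes differ between panels) with another member in Acta2-positive (filled) and Acta2-negative (open) cells at 2000 UMIs per cell, for mural cells of tumour 2 and EGFP-high glioma cells of both tumours, with 95% exact binomial intervals. In mural cells 15 of 16 Acta2-positive cells hold another member; in glioma cells 11 of 109 and 11 of 98 do, with Myh11 at 0.

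Tagln and Myl9 were also followed in cells with more Acta2. At full depth 44 and 38 glioma cells of tumours 1 and 2 had 5 or more Acta2 UMIs and held 24.6% and 39.9% of the glioma Acta2. Tagln was in 22.7% and 28.9% of them and Myl9 in 52.3% and 44.7%, against 2.29% and 4.22%, and 6.58% and 8.04%, of cells with no Acta2 UMI. Their median depth was 28888 and 33360 UMIs, against 17726 and 6474 in the cells without Acta2, and the part of depth in these unthinned shares was not tested. Myh11 was in none of the 44 and 38, and 16 and 15 of them held no other member at all. Since Myh11 was in only 13 and 8 cells of the whole glioma class, these zeros do not set the 44 and 38 apart from other glioma cells.

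EGFP and the mural gate genes are part of the rule for the glioma class, so their values in Acta2-positive glioma cells at 2000 UMIs only describe it. Median EGFP was 117 and 115 UMIs per 10,000 in Acta2-positive cells, against 76.2 and 72.5 in Acta2-negative ones. The 4 mural gate genes together stood at 0.0140 and 0.0271 per 10,000, against 0.0117 and 0.0187. They stood at 36.5 and 56.9 in mural cells. Sox2 was 2.95 and 2.64 in Acta2-positive cells, against 2.22 and 2.79. Tagln over the whole depth of the cells was 1.69 and 1.80, against 0.0541 and 0.0991. A minority of cells carried it: even with 5 or more Acta2 UMIs at full depth, 22.7% and 28.9% of glioma cells held a Tagln UMI.

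Counting members per cell at 2000 UMIs gave the same contrast between classes. At least 3 of the 9 were seen in 4 of 17 and 18 of 31 mural cells of tumours 1 and 2, against 4 of 6711 and 3 of 5474 glioma cells (0.0596% and 0.0548%). At full depth it was 16 of 18 and 27 of 31 mural cells, against 112 of 7253 and 56 of 6900 glioma cells, and 5 or more members were seen in 6 and 20 mural cells, against 7 and 2 glioma cells. Astrocyte-like cells, many of them EGFP-high, are outside this glioma class. They held at least 3 members in 0 of 604 and 1 of 55 cells at 2000 UMIs, and in 27 of 625 and 8 of 55 at full depth.

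**Figure D5:**
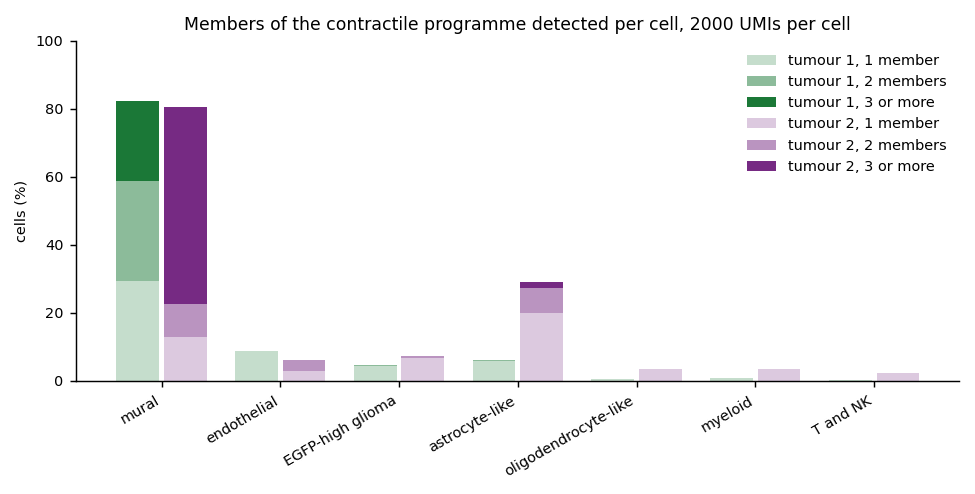
Share of cells (percent) with 1, 2 or 3 or more of the 9 members at 2000 UMIs per cell, by class, green for tumour 1 and purple for tumour 2. The darkest shade, 3 or more members, takes 4 of 17 and 18 of 31 mural cells and is too thin to see in EGFP-high glioma cells at 4 of 6711 and 3 of 5474.

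Outside the mural gate 12 barcodes held 5 or more members at full depth: 9 glioma, 2 astrocyte-like and 1 myeloid. None of the 12 had a Myh11 UMI, and Rgs5, which the gate did not use, had 1 UMI in 2 of them. The richest, a tumour 1 glioma cell with EGFP at 126 per 10,000, carried 17 Acta2, 51 Tagln, 32 Myl9 and 16 Cnn1 UMIs. Acta2 was not a constant part of this set: another tumour 1 glioma cell had 145 Tagln, 29 Myl9, 20 Des and 16 Cnn1 UMIs with no Acta2. In tumour 2 an astrocyte-like cell with EGFP at 321 per 10,000 had 34 Acta2 and 176 Tagln UMIs. Col1a1, a collagen of fibroblasts, had 19 to 46 UMIs in 5 of the 12 cells and none in the rest. Cnn1 had 2 to 16 UMIs in some of the tumour 1 cells and none in those of tumour 2. The cells were picked by their number of members, so finding members together only describes them. No mural cell held Cnn1, but the depth of mural cells did not allow a comparison.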

How the data were processed

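The authors deposited 1 matrix of UMI counts per library, made per the submitters' processing notes with Cell Ranger 4.0.0 on mm10 (GRCm38). The notes also name Seurat, no output of which was used. Transgene rows were kept out of totals and tests. Cells with 500 or more genes, under 20% mitochondrial and under 5% haemoglobin UMIs were kept, and the top Scrublet scores (scanpy 1.11.5) were removed at 0.8% per 1000 barcodes, 1470 and 2307 cells. The automatic Scrublet threshold marked 683 and 209. Gates needed a minimum of marker genes and UMIs per 10,000, for mural cells 2 of 4 genes and 5 UMIs.

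A cell past several gates was to be in no class. This left 5 mural cells in tumour 1, under the minimum of 10, so barcodes past the mural and endothelial gates were kept as mural, a choice made after the files were seen. The members and lists were chosen with earlier results of these data known. All 9 members, and from each list up to 4 genes past the threshold with the largest change between mural and glioma cells, are named, with paralogs and regulators beside a member (Actb, Myocd and Srf among them). Some named results are not reported here.

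UMI counts were summed per tumour and class and tested in edgeR 4.0.16 (R 4.3.3, TMM, filterByExpr, quasi-likelihood, tumour as block, Benjamini-Hochberg over 13486 genes, threshold 0.05). All classes of 1 library share their tumour, and deviations of the same tumour correlated in all 21 class pairs (r 0.247 to 0.640). On data simulated for mural against glioma cells, 55% of genes changed 4-fold and 88% of those changed 16-fold were recovered out of 100 each, over 13486 genes. With the tumour as a block, a shift common to a whole library is taken out. The p-values measure the spread that remains between classes of these 2 tumours, pooled over all classes. Thinning drew 2000 UMIs per cell once with a fixed seed, and shallower cells were left out. Intervals are 95% exact Poisson or Clopper-Pearson, the floor is 3 counts, and both cover counting error only. Libraries held 282961884 and 295366782 UMIs. Alternatives were DESeq2 1.42.0 and its size factors, no filter, no block, no doublet removal, 10% mitochondrial UMIs, a doubled mural gate, EGFP-high cells left out, a 99th percentile EGFP cut, other thinning depths, and, added after the data were seen, mural cells past 1 gate only and mural cells with 100 or more Acta2 UMIs left out.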

Additional observations from a re-analysis of the deposited data

How the results depend on the processing

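The members called higher in mural than in EGFP-high glioma cells numbered 7 of 7 tested in all alternatives run but 2: 8 of 9 with no filter on low counts and 6 of 6 with mural cells past 1 gate only. The last setting had 5 mural cells in tumour 1, under the minimum of 10, and no share of all genes beside it. The 7 of the main run include Myh11, which passed the filter only through the mural sums. The 8 take in Cnn1 or Lmod1, both too scarce in mural cells for a comparison, so these calls are not counted as support. No result reversed. With 1 tumour left out no residual degrees of freedom remain, so counts of calls have no such value. Between mural and glioma cells the log2 ratio of levels was then 0.78 to 6.35 for Acta2 and 0.48 to 5.54 for Tagln. The share of Acta2-positive glioma cells was 1.62% to 1.79% and their co-detection 10.1% to 11.2%.

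With no filter on low counts the members called were 7 in mural against endothelial, 3 in glioma against T and NK and 2 (both lower) in glioma against astrocyte-like cells, in place of 4, 1 and 0. With no replicate block they were 2 in mural against endothelial, 0 in glioma against T and NK and 1 in glioma against myeloid cells, in place of 4, 1 and 2. The block moved no other count of calls. Without doublet removal glioma against T and NK gave 0. With mural cells past 1 gate only, glioma against T and NK gave 3 and against astrocyte-like cells 1 lower. The share of all genes called was taken in the main run only, so these changes are not set against all genes. The causes were not tested.

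The share of glioma cells with Acta2 was 3.86% and 4.15% in tumours 1 and 2 at 5000 UMIs and 10.9% and 8.01% unthinned. In tumour 1 it was 2.17% without doublet removal and 2.24% with the 99th percentile cut. Unthinned co-detection was 35.3% and 32.0%, against 16.6% and 16.7% in Acta2-negative cells.

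The level of the 9 members in mural cells of tumour 1 (5.70) was 3.71 without doublet removal, 6.43 without EGFP-high cells and 12.4 with cells past 1 gate only, where Acta2 (0.162) was 0.846. In mural cells of tumour 2 (35.7) it was 31.2, 38.0 and 49.8 under the same 3 settings, 38.2 with under 10% mitochondrial UMIs and 14.9 without the cells of 100 or more Acta2 UMIs. Acta2 there (11.5) was 9.86 without doublet removal, 12.5 without EGFP-high cells, 16.4 past 1 gate only and 2.42 without those cells. In glioma cells of tumour 1 the 9 members (0.322) were 0.418 without doublet removal and 0.440 with the 99th percentile cut, and Acta2 (0.0945) was 0.114 and 0.117. With that cut the values of tumour 2 were 0.550 for the 9 members and 0.167 for Acta2, in place of 0.498 and 0.140. Depth limits Cnn1 and Lmod1, since 3 counts in the mural cells of tumours 1 and 2 are 0.0541 and 0.0472 per 10,000, above the glioma levels of both genes.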

Other observations

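Cells with EGFP below the cut and past no gate numbered 2034 and 3350 in tumours 1 and 2. Their Sox2 was 1.82 and 3.14 per 10,000, against 2.23 and 2.76 in EGFP-high glioma cells. Their Acta2 was 0.0121 and 0.0453, against 0.0945 and 0.140 in EGFP-high glioma cells, and their 9 members together 0.0711 and 0.219, against 0.322 and 0.498. EGFP set the 2 classes apart and no test was made.

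Actg2, the enteric smooth-muscle actin, had 0 UMIs in T and NK cells of tumour 1 and 75 in 26 cells of tumour 2 (0.0937 per 10,000), where mural cells had 8 UMIs and EGFP-high glioma cells 160 (0.0186 per 10,000). The richest T and NK cell held 20. Actg2 was chosen for mention after its values were seen.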
